A study of Mus musculus with 89 samples.

Results

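The cells described here were 11 activated-class stem cells of the mouse dentate gyrus without reads of Pdgfra, set against 25 quiescent-class stem cells, 36 of the 89 single cells of the study. The 11 cells carried the class name aNSC in the deposited class table and were selected on a measured value, fewer than 10 reads of Pdgfra, the growth factor receptor that marks oligodendrocyte precursors; they are called Pdgfra-negative aNSC cells below. The cells they were set against carried the class name qNSC and 1 of the 3 plotting colours given to that class, a green, and are called green qNSC cells. The sources used here do not say what the colours stand for. In this field aNSC and qNSC are the usual short names of activated and quiescent neural stem cells.

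Each cell was its own full-length library, made from dentate gyri of C57BL/6 mice homozygous for a Nestin:CFPnuc transgene, in which a fluorescent protein is driven by the nestin promoter of stem and progenitor cells. Live single cells were sorted after enzymatic dissociation. The Pdgfra-negative aNSC cells were 7 cells from mice 2 months old and 4 cells from mice 4.5 months old. The green qNSC cells were 15 cells from mice 2 months old and 10 cells from mice 4.5 months old. No label says which animal a cell came from, so each age counted as 1 sample, the SDs given below are over cells, and no test or p-value was possible. The Pdgfra rule left no borderline cells: all 11 members had 0 Pdgfra reads, the 7 other aNSC cells had 531 to 3057, and the green qNSC cells had at most 1.

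Most stem cells of the adult dentate gyrus rest outside the cell cycle, in a state of radial glia that shares many genes with astrocytes. On activation such cells leave this state, enlarge their machinery for making RNA and protein, and enter G1 and then S phase, in which DNA is copied. Their daughters, the intermediate progenitors, divide further and become neurons. The classes had been drawn from the same expression values, so the differences that follow describe the 2 groups of cells and do not test the classes.

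Both groups of cells held transcripts of the quiescent stem cell set. Of 14 quiescent stem cell markers, 7 to 13 had 10 or more reads in each of the Pdgfra-negative aNSC cells and 8 to 13 in each of the green qNSC cells, with a median of 11 in both. Of 12 astrocyte markers, 50% or more reached 10 reads in 7 of the 11 aNSC cells and in 24 of the 25 green qNSC cells. No aNSC cell had more than 2 of 10 oligodendrocyte precursor markers or more than 4 of 9 intermediate progenitor markers, and no green qNSC cell had more than 2 and 3 of these. Mki67, the proliferation marker, had no read in any of the 36 cells, which, with cells taken as independent draws, allows a share of cells with a read of up to 28.5% of aNSC cells and 13.7% of green qNSC cells (upper 95% Clopper-Pearson limits) and does not limit the share of cells expressing it. Several of the 14 markers, such as Apoe, Aldoc and Sox9, are shared with astrocytes, so these numbers do not tell stem cells from astrocytes. The aNSC cells ranged from 2 to 12 of the 12 astrocyte markers. Neither group held the marker set of intermediate progenitors or of neuroblasts.

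Some cells also held marker sets of other cell types. 1 aNSC cell of 2 months had 7 of 10 endothelial and 7 of 10 mural markers, with summed levels of 6943 and 14036 CPM (reads of a gene scaled to a common total per cell), and it was also the most deeply read, at 1896075 reads. In 1 aNSC cell of 4.5 months, 5 of 8 ependymal markers reached 10 reads. Among the green qNSC cells, 1 cell of 4.5 months had 10 of 10 oligodendrocyte markers. Whether any of these libraries held more than 1 cell was not tested. Each of these cells also had 7 or more of the 14 stem cell markers; counts that differ by more than 1.5 times without these 3 cells are given both ways. Reads assigned to genes ran from 252278 to 1896075 per aNSC cell (median 798669) and from 450016 to 1486349 per green qNSC cell (median 1004305), and genes with a read from 3767 to 5672 (median 4145) and from 2606 to 4674 (median 3840). After thinning to 450012 reads, the 8 deep enough aNSC cells still showed more genes, with a median of 4051, against 3471 in the 25 green qNSC cells.

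Apoe, the lipid carrier made in large amounts by astrocytes and quiescent stem cells, was the gene that separated the groups most cleanly. It had 2001, 8416 and 17923 CPM (lowest, median and highest) in the Pdgfra-negative aNSC cells, against 18036, 27208 and 44601 CPM in the green qNSC cells. Every aNSC cell thus lay below every green qNSC cell, and Apoe was the 1 gene of the 8292 measured for which the groups did not overlap (0.0121%); no gene lay above in all aNSC cells. Its mean log2(CPM + 1) was 13.07 ± 0.87 in aNSC cells and 14.69 ± 0.31 in green qNSC cells (SD over 11 and 25 cells), a difference of -1.62 that exceeds both SDs. By age, where the lack of overlap follows from that in all cells, the values were as follows: at 2 months the highest aNSC cell had 14987 CPM and the lowest green qNSC cell 18036, and at 4.5 months 17923 and 18725. The margin was narrow, however. In the deposited TPM values 10 of the 11 aNSC cells lay below the lowest green qNSC cell, and on the CPM scale 2 of the 26 red qNSC cells lay below the highest aNSC cell. Apoe lies on chromosome 7 at 19696109 to 19699188 (mm10, minus strand, protein-coding).

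Of the 4 genes given as markers of the activated state, Cdk4, Mcm7 and Cct5 were higher in the Pdgfra-negative aNSC cells, and Hopx, a marker of resting stem cells, was lower. These genes were chosen with this comparison in view, so their values are a description. Cdk4, the kinase that drives cells through G1, had 0, 361 and 895 CPM (lowest, median, highest) in aNSC cells, against 0, 133 and 616 CPM in green qNSC cells. It was read in 10 of 11 and in 16 of 25 cells, and the difference in mean log2(CPM + 1) was 2.74. Mcm7, a subunit of the helicase that opens DNA for replication, had 0, 31.3 and 851 CPM in aNSC cells and 0, 0 and 605 CPM in green qNSC cells. It was read in 6 of 11 and 3 of 25 cells, so 5 aNSC cells shared the zero of most qNSC cells, and its difference was 3.49. Cct5, a subunit of the ring that folds actin and tubulin, had 151, 434 and 1084 CPM in aNSC cells and 0, 235 and 1171 CPM in green qNSC cells: every aNSC cell had reads, 7 of 25 green qNSC cells had none, and the upper ends of the groups met. Its difference was 3.11, and the ratio of summed CPM, 2.01, was so near the limit of 2 used below that leaving out a single aNSC cell could end the call.

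Hopx had 0.91, 1307 and 5498 CPM in aNSC cells and 164, 3094 and 6972 CPM in green qNSC cells, a difference of -1.96. Here 2 aNSC cells fell below all green qNSC cells while 3 lay above the green qNSC median. The lowest green qNSC value, 164 CPM, was that of the cell with oligodendrocyte markers. Of the 2 aNSC cells below it, 1, at 116 CPM, was the cell with ependymal markers. Mean differences by age were 1.08 at 2 months and 5.41 at 4.5 months for Cdk4, 2.95 and 4.45 for Mcm7, 4.67 and 0.71 for Cct5, and -1.06 and -3.54 for Hopx. On mm10, Cdk4 lies at chromosome 10, 127063534 to 127067920, Mcm7 at chromosome 5, 138164583 to 138172422, Cct5 at chromosome 15, 31590800 to 31601804, and Hopx at chromosome 5, 77086988 to 77115121, all protein-coding.

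**Figure D1:**
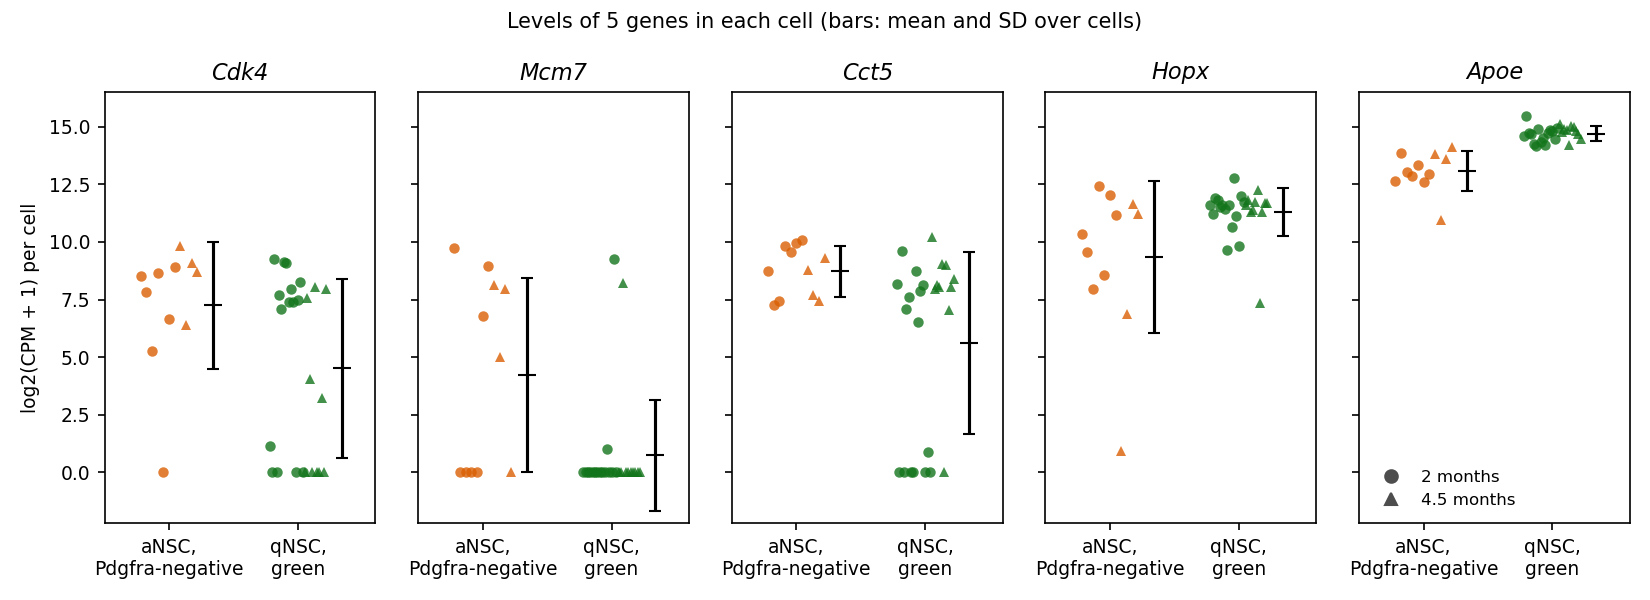
Level of 5 genes in each of 11 Pdgfra-negative aNSC cells (left) and 25 green qNSC cells (right), as log2(CPM + 1), with circles for 2 months, triangles for 4.5 months, and bars for the mean and SD over cells. Cdk4, Mcm7 and Cct5 differ mainly in how many cells have any read, whereas for Apoe every aNSC cell lies below every green qNSC cell.

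Across all genes the aNSC cells were shifted upward, and each list is read against this shift. A gene counted as measured when it was read in 20% or more of either group's cells, which held for 8292 genes. Their median difference in mean log2(CPM + 1) was 0.52, and 67.0% were above 0. A gene was called higher or lower when the mean difference was at least 1, the ratio of summed CPM at least 2, and the share of cells with a read differed by at least 15 percentage points, all in 1 direction. By this rule 1264 genes (15.2%) were called higher in aNSC cells and 334 (4.03%) lower. Single cells varied widely: the median SD over cells was 3.13 in aNSC and 3.002 in green qNSC cells, and the difference exceeded the larger SD for only 43 of the 1264 genes called higher and 3 of the 334 called lower. With the 3 cells of mixed markers left out, 510 genes were called lower. The sign was the same at both ages for 1074 of the genes called higher and 295 of those called lower.

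**Figure D2:**
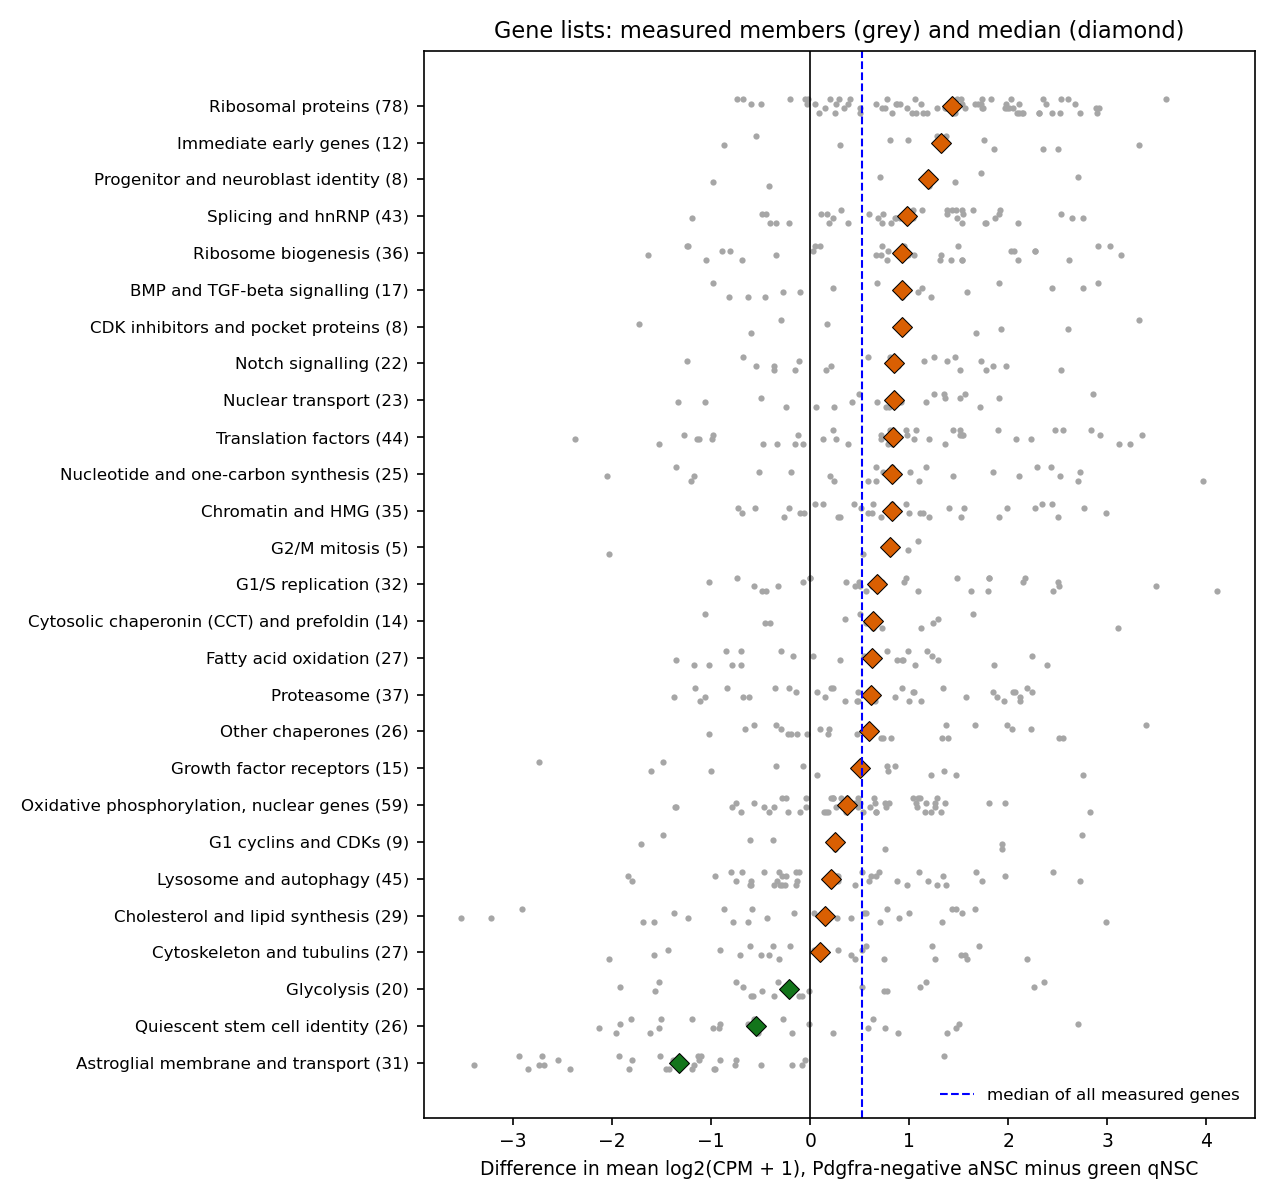
Difference in mean log2(CPM + 1), Pdgfra-negative aNSC minus green qNSC, for the measured members (grey dots) and the median (diamonds) of 27 gene lists, with the number measured in brackets; the dashed line is the median of all 8292 measured genes at 0.52. The astroglial list lies lowest, with a median of -1.33, and ribosomal proteins lie highest, at 1.43.

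Genes of the astroglial membrane were lower in the Pdgfra-negative aNSC cells, 30 of 31 measured members below 0, with a median difference of -1.33 against 0.52 over all genes. The list holds transporters, channels, junction proteins and surface proteins that let astroglia take up transmitters and exchange ions. 3 members (9.68%) were called lower, against 4.03% of all genes: Gjb6, a gap junction protein, F3, the tissue factor, and Slc7a11, a cystine transporter. Slc7a11 was read in 2 of 11 aNSC cells and 15 of 25 green qNSC cells. It thus counted as measured only through the green qNSC cells, and its call is no support for the list. Gjb6 was read in 4 of 11 aNSC cells and 18 of 25 green qNSC cells, and its difference was -3.40. The call rule asks for a change in the share of cells with a read, which abundant genes read in every cell cannot meet. With that demand dropped, 11 of the 31 were lower by the other 2 criteria, against 6.57% of all genes, and none was higher. Those 8 further genes were Gja1, Aqp4, Slc7a10, Mlc1, Ttyh1, S1pr1, Cldn10 and Cspg5. Of these, Aqp4, Slc7a10, Ttyh1 and Cldn10 were not read in every cell, but their shares differed by less than 15 percentage points.

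Gja1, the main astrocyte connexin, had 5.0, 568 and 5756 CPM in aNSC cells and 123, 2085 and 10528 CPM in green qNSC cells. It was read in all 36 cells, and 9 of the 11 aNSC cells lay below the green qNSC median. Aqp4, the water channel, had 0, 4.0 and 989 CPM in aNSC cells against 0, 466 and 3393 CPM in green qNSC cells. Cldn10, a claudin, had 0, 189 and 1943 CPM in aNSC cells against 0, 1267 and 4824 CPM in green qNSC cells. The glutamate transporters differed less: Slc1a3 had a median of 6858 CPM in aNSC cells and 9172 in green qNSC cells, and Slc1a2 1408 and 2127 CPM. The list median was -0.70 at 2 months and -2.58 at 4.5 months, and 3 members were called lower in all cells but none in the 2-month cells alone and 11 in the 4.5-month cells alone. With 1 aNSC cell left out in turn, the number ran from 0 to 6. The aNSC cell with ependymal markers had the lowest astroglial level of all; with the 3 cells of mixed markers left out, 1 member was called lower and the median was -0.998.

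Genes of quiescent stem cell identity split. The list median was -0.55, with 17 of 26 measured members below 0. In each direction 1 member was called (3.85%, against 15.2% of all genes higher and 4.03% lower). Sox4, a transcription factor of activated and differentiating progenitors, was higher, and Tfap2c lower. Tfap2c, read in 1 of 11 aNSC cells, counted as measured only through the green qNSC cells, and Sox4 only through the aNSC cells. By age the median was -0.92 at 2 months and -0.009 at 4.5 months. With no demand on the share of cells, 7 were lower (Hopx, Gfap, Fabp7, Apoe, Clu, Aldoc and Tfap2c) and 3 higher (Sox4, Hes1 and Egfr). Aldoc, the aldolase of astroglia, had 55.1, 4455 and 19945 CPM in aNSC cells against 5964, 11569 and 23425 CPM in green qNSC cells, and 7 of 11 aNSC cells lay below all green qNSC cells. Gfap, the intermediate filament of radial glia, had 0, 119 and 1262 CPM in aNSC cells against 0, 551 and 1576 CPM in green qNSC cells. Fabp7, a fatty acid binding protein of radial glia, had medians of 444 and 997 CPM.

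Other stem cell regulators lay close together. Sox9, a transcription factor of neural stem cells and astrocytes, had a mean log2(CPM + 1) of 8.37 ± 0.99 in aNSC cells and 8.38 ± 1.90 in green qNSC cells (SD over 11 and 25 cells). For Id4, which holds stem cells at rest, the means were 8.92 ± 1.62 and 9.20 ± 1.15. Thrsp had medians of 942 and 1288 CPM. Sox4 was read in 7 of 11 aNSC cells and 3 of 25 green qNSC cells, with summed levels of 124 and 10.3 CPM, and its difference was 0.92 at 2 months and 5.77 at 4.5 months.

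Replication genes were higher as a group, but 1 cell carried much of this. Of 55 genes of G1/S, 32 were measured, 23 lay above 0, and 11 were called higher (34.4%, against 15.2% of all genes) and none lower, with a median of 0.68. They covered the helicase (Mcm2, Mcm5, Mcm6 and Mcm7), the polymerases and primase (Pold2 and Prim2), the clamp loader (Rfc2), the supply of nucleotides (Rrm2 and Dut) and the loading of histones (Chaf1a and Nasp). Pold2, an accessory subunit of DNA polymerase delta, had the largest difference of the list, with 0, 160 and 328 CPM in aNSC cells against 0, 0 and 206 CPM in green qNSC cells. It was read in 8 of 11 and 7 of 25 cells, with a difference of 4.11. Chaf1a, the large subunit of the chromatin assembly factor, was read in 4 of 11 aNSC cells and in none of the 25 green qNSC cells. Mcm5 was read in 4 of 11 aNSC cells and 1 of 25 green qNSC cells, and Rrm2, the regulated subunit of ribonucleotide reductase, likewise in 4 and 1. Chaf1a, Mcm5, Rrm2 and Mcm7 counted as measured only through the aNSC cells, so their calls are no support for the list.

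In 1 aNSC cell of 2 months, 45 of the 55 G1/S genes and 20 of the 50 G2/M genes had 10 or more reads. In the other 10 aNSC cells the G1/S number was 3 to 14 (median 7.5) and the G2/M number 1 to 4; in green qNSC cells they were 1 to 14 (median 7) and 0 to 6. This cell had a middling depth of 824430 reads. It held 10 of 14 stem cell markers, 4 of 12 astrocyte markers, 4 of 9 intermediate progenitor markers and no Mki67 read, with Hopx at 2294 CPM, above the aNSC median. For comparison, the 11 cells of the class IPC, the usual short name of intermediate progenitor cells, had 10 to 51 G1/S genes (median 29) and 2 to 50 G2/M genes. Among the replication genes, 9 were read in this cell and in no other aNSC cell, including Ccne1, Ccne2, E2f1, Mcm10, Cdt1 and Tyms. Without it, 5 of 32 measured G1/S genes were called higher and 1 lower, against 14.3% of all genes called higher, and the list median was 0.13 against 0.54 over all genes. In mean log2(CPM + 1) over the G1/S list, 4 of the 11 aNSC cells lay above the highest green qNSC cell, at 1.59. They were this cell, at 6.79, a cell of 262317 reads at 2.46, and 2 cells of mixed markers. Those were the cell with ependymal markers, at 1.63, and that with endothelial and mural markers, at 1.61.

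**Figure D3:**
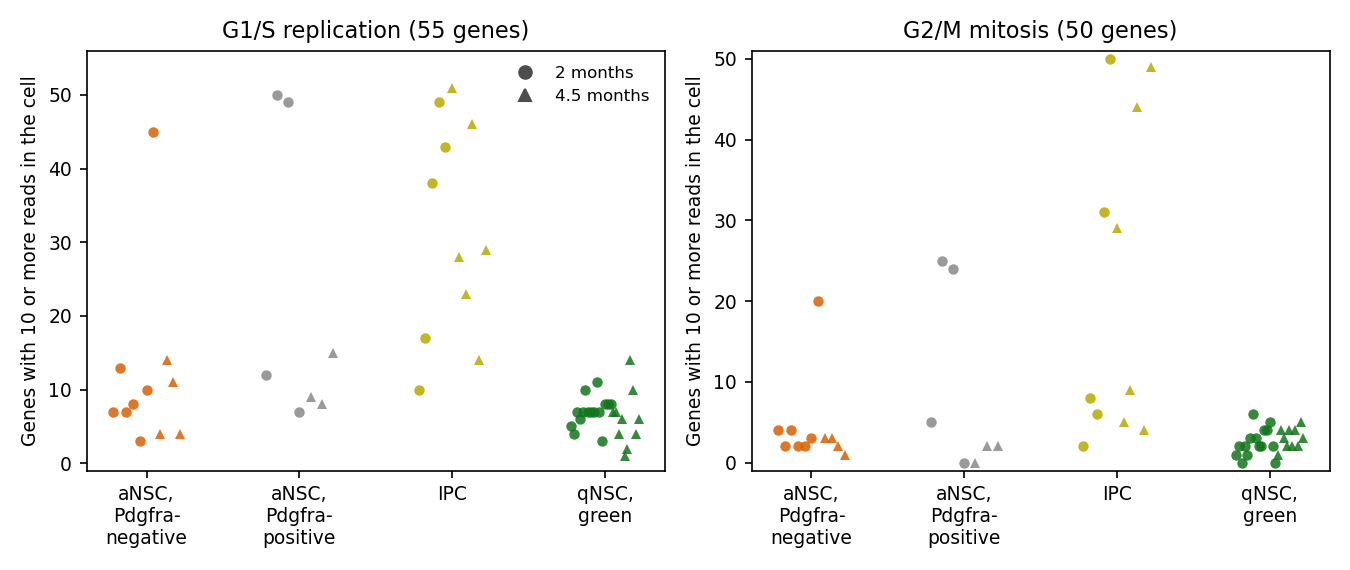
Number of genes with 10 or more reads in each cell, for 55 G1/S replication genes (left) and 50 G2/M genes (right), in Pdgfra-negative aNSC, Pdgfra-positive aNSC, IPC and green qNSC cells; circles are 2 months and triangles 4.5 months. A single Pdgfra-negative aNSC cell, at 45 and 20, lies above the other 10 and above all green qNSC cells in these numbers of genes. The other 10, at 3 to 14 and 1 to 4, overlap with the green qNSC cells. They also overlap with the low end of the IPC ranges, 10 to 51 and 2 to 50, within which the single cell lies.

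Calls for Pold2 and Mcm7 did not hang on the cell with many replication genes: without it their differences were 3.83 and 3.02. Mcm6 was read in 4 of the other 10 aNSC cells and 5 of 25 green qNSC cells, and Dut, which clears dUTP, in 7 of 10 and 8 of 25. Pcna, the sliding clamp, was read in 6 of 11 aNSC cells and 14 of 25 green qNSC cells, with a difference of -0.07. Of the G2/M list only 5 of 50 genes were measured, and 23 had no read in any aNSC cell and 29 in no green qNSC cell.

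The promoters of these genes are given because E2F factors, which switch on replication genes in late G1, bind words of a known form. The words TTTCCCGC, TTTGGCGC, TTTCGCGC and TTTGCCGC were searched on both strands in the 250 bases before each gene's start (RefSeq, GRCm38.p6). They occurred in 11 of 43 G1/S genes with a listed promoter (25.6%), against 2.16% of all 27025 genes. Of the measured G1/S genes with a promoter, 3 of 25 held a word (12%). Among genes called higher the share was 4.54%, among genes called lower 4.86%, and among all measured genes 3.90%. Of the 9 G1/S genes called higher that had a promoter, 3 held a word. A match is only a run of letters, and Hopx, lower in aNSC cells, holds one too. Windows of 60 bases around the words follow, on the gene's own strand, with the words in capitals. In Mcm5 and Mcm6 the capitals are overlapping words on the 2 strands, and Mcm6 has a further word 47 bases before its start. The starts are those of RefSeq, and the Mcm7 window lies inside the gene limits given above. Mcm7 and Hopx each have another listed promoter, which holds no word.
Mcm5, chr8:75109332-75109391, plus strand: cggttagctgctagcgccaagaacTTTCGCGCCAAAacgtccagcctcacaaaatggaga
Mcm6, chr1:128359780-128359839, minus strand: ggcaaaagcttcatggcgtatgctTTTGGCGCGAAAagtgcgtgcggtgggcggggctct
Mcm7, chr5:138172015-138172074, minus strand: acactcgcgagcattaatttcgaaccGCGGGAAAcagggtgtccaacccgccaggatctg
Hopx, chr5:77115251-77115310, minus strand: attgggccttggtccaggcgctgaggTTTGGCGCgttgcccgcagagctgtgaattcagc

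Regulators of the cell cycle did not move one way. In the list of G1 cyclins and their kinases, 9 of 15 genes were measured. Cdk4 and Mycn were called higher (22.2%, against 15.2% of all genes), and Ccnh and E2f5 lower (22.2%, against 4.03%). Mycn, a driver of progenitor growth, was read in 4 of 11 aNSC cells and 2 of 25 green qNSC cells. It thus counted as measured only through the aNSC cells. Ccnd2, the D cyclin of neural progenitors, had summed levels of 499 CPM in aNSC cells and 182 CPM in green qNSC cells and was read in 10 of 11 and 19 of 25 cells. Among genes that hold the cycle back, 3 of 8 measured were called higher (37.5%, against 15.2% of all genes) and none lower: Btg2, an antiproliferative gene that is also an immediate early gene, Trp53, the p53 gene, and Cdkn2c, an inhibitor of Cdk4 and Cdk6. Cdkn2c, read in 4 of 25 green qNSC cells, counted as measured only through the aNSC cells. Btg2 had 0, 236 and 989 CPM in aNSC cells against 0, 0 and 667 CPM in green qNSC cells, with differences of 3.49 at 2 months and 3.22 at 4.5 months.

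Ribosomal protein genes were the most uniformly higher list. Of 78 measured, 70 lay above 0, 18 (23.1%) were called higher, against 15.2% of all genes, and none was called lower; the median was 1.43 against 0.52 over all genes, 1.16 at 2 months and 1.75 at 4.5 months. Rps2, of the small subunit, had 34.97, 186 and 508 CPM in aNSC cells and 0, 23.02 and 325 CPM in green qNSC cells. It was read in 11 of 11 and 17 of 25 cells, and its difference of 3.59 was alike at both ages, 3.64 and 3.62. Rps27a and Rpl29 followed, with differences of 2.91 and 2.89. The mean log2(CPM + 1) over the list was 3.804 to 7.28 in aNSC cells (median 5.69) and 3.34 to 5.76 in green qNSC cells (median 4.54). 5 of the 11 aNSC cells lay above the highest green qNSC cell and 9 above the green qNSC median. The cell with many replication genes was among the highest, at 6.87, and without it the list median was 1.22. Ribosomal protein genes have many processed pseudogenes, so reads may be split between copies.

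The 2 aNSC cells with the lowest ribosomal levels, 3.804 and 3.90, also had the highest astroglial levels, 9.82 and 9.89, at the upper end of the green qNSC range of 5.14 to 10.04. Both were 2-month cells, with 343158 and 472002 reads, below the aNSC median of 798669; the part of depth in this was not tested. At the other end, the aNSC cell with ependymal markers had an astroglial level of 2.01 and a ribosomal level of 6.44. The remaining aNSC cells had astroglial levels of 4.10 to 7.19 and ribosomal levels of 5.35 to 7.28. In all, 6 of the 11 aNSC cells lay within the green qNSC ranges of both levels.

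**Figure D4:**
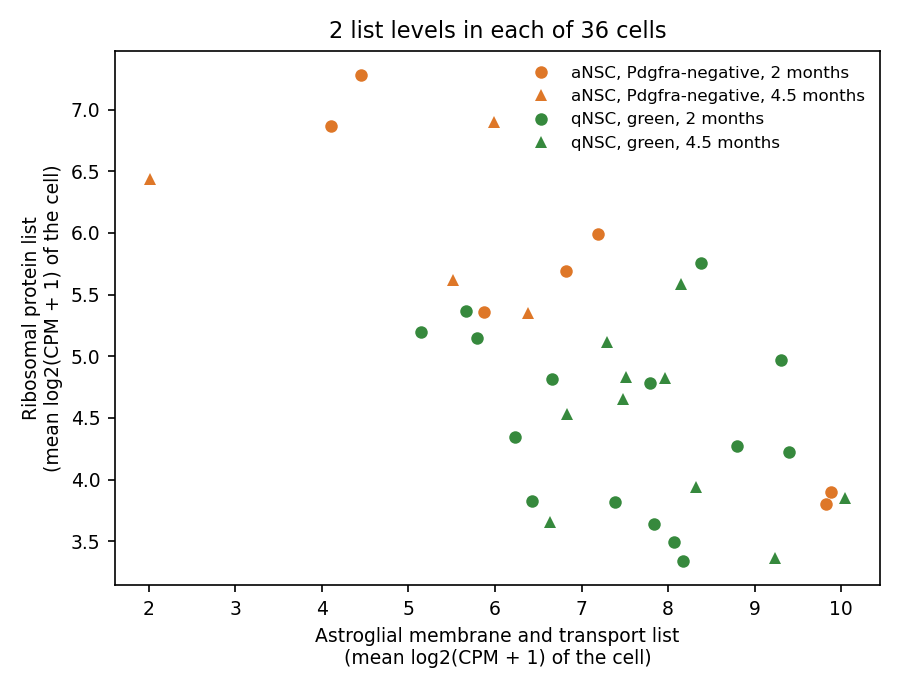
Mean log2(CPM + 1) over the ribosomal protein list (vertical) against that over the astroglial membrane and transport list (horizontal) in each of the 36 cells, with Pdgfra-negative aNSC cells in orange, green qNSC cells in green, circles for 2 months and triangles for 4.5 months. 5 of the 11 aNSC cells lie above all green qNSC cells in ribosomal level and 3 lie below all in astroglial level, while 6 lie within the green qNSC ranges of both.

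Other growth lists had medians between those of all genes and of ribosomal proteins, with shares of called members near or below the background. Of 36 measured genes of ribosome assembly, 28 lay above 0, with a median of 0.93, and 7 were called higher (19.4%, against 15.2% of all genes; Nhp2, Polr1d, Imp4, Nop58, Bop1, Rrp1b and Bysl) and 1 lower (Polr1b). Nhp2, a core protein of the particles that modify ribosomal RNA, had 0, 61.5 and 179 CPM in aNSC cells against 0, 0 and 161 CPM in green qNSC cells. Of 44 translation factors, 32 lay above 0, with a median of 0.83, but 3 were called higher, 6.82% against 15.2% of all genes: Eef2, Eif4a1 and Eif3g. Eef2, the factor that moves the ribosome along the message, had 0, 191 and 776 CPM in aNSC cells and 0, 2.1 and 633 CPM in green qNSC cells. Of 43 splicing factors and RNA-binding proteins of the hnRNP family, 37 lay above 0, with a median of 0.97, and 4 were called higher (9.30%, against 15.2%; Snrpd1, Hnrnpab, Sf3a1 and Snrpf).

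Nucleotide synthesis differed more in its level per cell than in its number of called genes. The mean level over its 31 genes was 2.22 to 4.62 in aNSC cells (median 3.28) and 1.56 to 3.01 in green qNSC cells (median 2.51), and 7 of 11 aNSC cells lay above the highest green qNSC cell, more than for the ribosomal list. Of 25 measured members 5 were called higher (Impdh2, Prps2, Adss, Gart and Cad) and 1 lower (Gmps), 20% and 4% against 15.2% and 4.03% of all genes. Impdh2, the rate-limiting enzyme of guanine nucleotide synthesis, had 0, 110 and 553 CPM in aNSC cells against 0, 0 and 241 CPM in green qNSC cells, and was read in 8 of 11 and 5 of 25 cells. Its difference was 3.97 in all cells, 4.93 at 2 months and 2.42 at 4.5 months. Prps2, which makes the sugar phosphate for purines, was read in 4 of 11 and 4 of 25 cells, but at summed levels of 101 and 0.7 CPM. Prps2 and Cad counted as measured only through the aNSC cells.

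For the chaperonin to which Cct5 belongs, 11 of 14 measured subunits and prefoldins lay above 0, with a median of 0.63, close to that of all genes. Cct5 was the 1 called (7.14%, against 15.2% of all genes called higher). The subunits of 1 ring did not have the same sign: Cct8 and Cct3 differed by 1.64 and 1.28, and Cct4 by -1.06. None of these 3 was called, and Cct4 differed by 1.21 at 2 months and -4.87 at 4.5 months. Hspa9, the Hsp70 of mitochondria, was read in all 11 aNSC cells and 18 of 25 green qNSC cells. It had 157, 568 and 982 CPM in aNSC cells against 0, 205 and 975 CPM in green qNSC cells, and its difference was 3.39.

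Genes of the Notch pathway were called at shares not far above those of all genes. Notch signalling keeps neural stem cells from differentiating: a ligand such as Dll1 on a committed cell activates the receptor on its neighbour, which then makes Hes and Hey repressors. Of 22 measured genes 5 were called higher (22.7%, against 15.2% of all genes), Dll1, Hes6, Rbpj, Adam17 and Numb, and Numbl was called lower (4.55%, against 4.03%). Hes6, which opposes the Hes repressors and promotes neuronal differentiation, had 0, 147 and 917 CPM in aNSC cells and 0, 0.8 and 896 CPM in green qNSC cells. The effector Hes5 had means of 5.83 ± 3.92 and 5.25 ± 3.65, a difference of 0.58, well within the spread. Numb, which restrains the receptor, was read in 4 of 11 and 2 of 25 cells. Dll1, Numb and Adam17 counted as measured only through the aNSC cells, and Numbl only through the green qNSC cells. The calls of these genes are no support for the list.

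Early neurogenic genes appeared in a few aNSC cells. Of 25 genes of progenitors and neuroblasts only 8 were measured, and 4 of these were called higher, against 15.2% of all genes: Sox4, Dll1, Elavl4 and Neurog2. Sox4, Dll1 and Neurog2 counted as measured only through the aNSC cells, so their calls are no support for the list. Neurog2, the proneural factor of the granule lineage, was read in 3 of 11 aNSC cells and 3 of 25 green qNSC cells, with highest levels of 113 and 2.2 CPM. Dll1 was read in 3 of 11 and 1 of 25 cells. Eomes, the defining gene of intermediate progenitors, was read in 2 aNSC cells, at most at 7.6 CPM, and in no green qNSC cell. The level over the list was 0.24 to 2.23 in aNSC cells and 0.33 to 1.37 in green qNSC cells, and 5 of 11 aNSC cells lay above all green qNSC cells.

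Receptors and signals that hold stem cells at rest were not uniformly lower. In the BMP and TGF-beta list 5 of 17 measured genes were called higher (29.4%, against 15.2% of all genes) and none lower: Smad2, Bmpr1a, Tgfbr1, Bmp7 and Tgfbr2. Tgfbr1 and Bmp7, read in 3 and 0 of 25 green qNSC cells, counted as measured only through the aNSC cells. Bmpr1a, a type I receptor through which BMPs keep dentate stem cells quiescent, was read in 9 of 11 aNSC cells and 15 of 25 green qNSC cells, with medians of 129 and 4.3 CPM. Id3, which BMPs induce, had means of 3.93 ± 4.05 and 4.56 ± 4.19, well within the spread. Among growth factor receptors, Il6st, the shared receptor of the interleukin 6 family, had no read in any aNSC cell and was read in 9 of 25 green qNSC cells, at 41.5 CPM in summed level; 4 of the 25 reached 10 reads. Il6st thus counted as measured only through the green qNSC cells. Fgfr3, an astroglial FGF receptor, was read in 5 of 11 aNSC cells and 21 of 25 green qNSC cells, yet the summed levels of 182 and 201 CPM were alike. Egfr, the receptor by which active stem cells answer EGF, was read in 5 of 11 and 8 of 25 cells and was not called.

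Metabolic lists differed little in sum. Of 20 measured glycolysis genes 7 lay above 0 and none was called. Of 59 nuclear genes of oxidative phosphorylation 44 lay above 0, with a median of 0.37. Of these genes 1, Ndufa1, was called higher (1.69%, against 15.2% of all genes). In sterol and fatty acid synthesis 4 of 29 measured genes were called lower (13.8%, against 4.03% of all genes; Elovl5, Msmo1, Sqle and Tm7sf2), and Scd1, a fatty acid desaturase, was among those called higher. Elovl5, which lengthens fatty acids, had 0, 1.3 and 2579 CPM in aNSC cells and 0, 546 and 2818 CPM in green qNSC cells. That difference lay at 4.5 months, -8.93, and was -0.34 at 2 months; Msmo1, a sterol oxidase, had -6.35 and -0.84.

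Among the 701 genes called higher with a difference of at least 1 at each age (8.45% of those measured), the 15 with the largest differences included Mfn2, Orc3, Spop, Pnpla8, Mbtps1, Uqcc1, Pnrc1, Cpd, Xpnpep1, Pold2, Pigq, Ccz1, Dym and Stk3. Mfn2, which fuses mitochondria, had 0, 197 and 432 CPM in the aNSC cells and at most 1.2 CPM in any green qNSC cell. It was read in 7 of 11 and 2 of 25 cells, so it counted as measured only through the aNSC cells, and its difference of 4.88 exceeded the SD of 3.97. It was not confined to the aNSC cells, as 6 of 9 blue and 6 of 26 red qNSC cells had reads. Mfn2 lies on chromosome 4 at 147873599 to 147904704 (mm10).

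Pold2, described above, and Orc3 serve the copying of DNA. Orc3, a subunit of the complex that marks replication origins, was read in 9 of 11 aNSC cells and 3 of 25 green qNSC cells. Spop, which selects proteins for ubiquitination, was read in all 11 aNSC cells, at 2.1, 302 and 553 CPM, against 11 of 25 green qNSC cells at 0, 0 and 400 CPM. Mbtps1, the protease that releases sterol-sensing transcription factors, was read in 8 of 11 and 4 of 25 cells. Dym, a Golgi protein, was read in 6 aNSC cells and in none of the green qNSC cells, and was at least 884-fold higher in summed CPM against a floor of 3 reads over the green qNSC group. That ratio is for the green cells only, as 2 of 9 blue and 4 of 26 red qNSC cells had Dym reads. Ccz1 was read in 3 of 25 green, 2 of 9 blue and 14 of 26 red qNSC cells. Like Mfn2, the genes Orc3, Mbtps1, Dym and Ccz1 counted as measured only through the aNSC cells. The other genes named, among them Uqcc1, which helps to assemble respiratory complex III, Pigq, of GPI anchor synthesis, and Stk3, a kinase of the Hippo pathway, were read in 8 to 10 of the aNSC cells and 2 to 11 of the green qNSC cells. Any of these read in no more than 4 of the 25 green qNSC cells also counted as measured only through the aNSC cells. None of the 15 belonged to the stem cell, astroglial or ribosomal lists.

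In the other direction, 165 genes (1.99%) were called lower with at least 1 at each age, and the 15 largest were Cnp, Naaa, Eva1a, Chst2, Nkain4, Gabrb1, Gpc5, Luzp2, Hsd11b1, Dscr3, Cyp2d22, Ramp1, Entpd2, Limch1 and Fam49b. 4 of them had reads in all 25 green qNSC cells. Naaa, the lysosomal enzyme that breaks down N-acylethanolamines, had 0, 103 and 1463 CPM in aNSC cells and 200, 728 and 2193 CPM in green qNSC cells. It had no read in 4 of 11 aNSC cells, and 6 lay below every green qNSC cell. Its means were 5.35 ± 4.41 and 9.61 ± 0.88, a difference of -4.26 with the spread on the aNSC side. Ramp1, a subunit of the receptor for the neuropeptide CGRP, had 0, 139 and 1473 CPM in aNSC cells and 148, 641 and 1720 CPM in green qNSC cells, again with 6 of 11 below all green qNSC cells.

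Nkain4, a partner of the sodium pump, had 0, 105 and 604 CPM in aNSC cells against 80.7, 455 and 1580 CPM in green qNSC cells. Gabrb1, a subunit of the GABA-A receptor, had 0, 166 and 544 CPM in aNSC cells against 114, 497 and 1482 CPM in green qNSC cells. In both, 4 aNSC cells lay below all green qNSC cells. Hsd11b1, which regenerates active glucocorticoid, was read in 4 of 11 and 16 of 25 cells, and Entpd2, the ecto-ATPase of astroglial stem cells, in 8 of 11 and 24 of 25. Cnp, an enzyme of myelin, was read in 4 of 11 aNSC cells and 20 of 25 green qNSC cells; its highest green qNSC value of 7990 CPM was that of the cell with oligodendrocyte markers, of which Cnp is one, and with the 3 cells of mixed markers left out the difference was -4.73, against -4.32 with them.

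**Figure D5:**
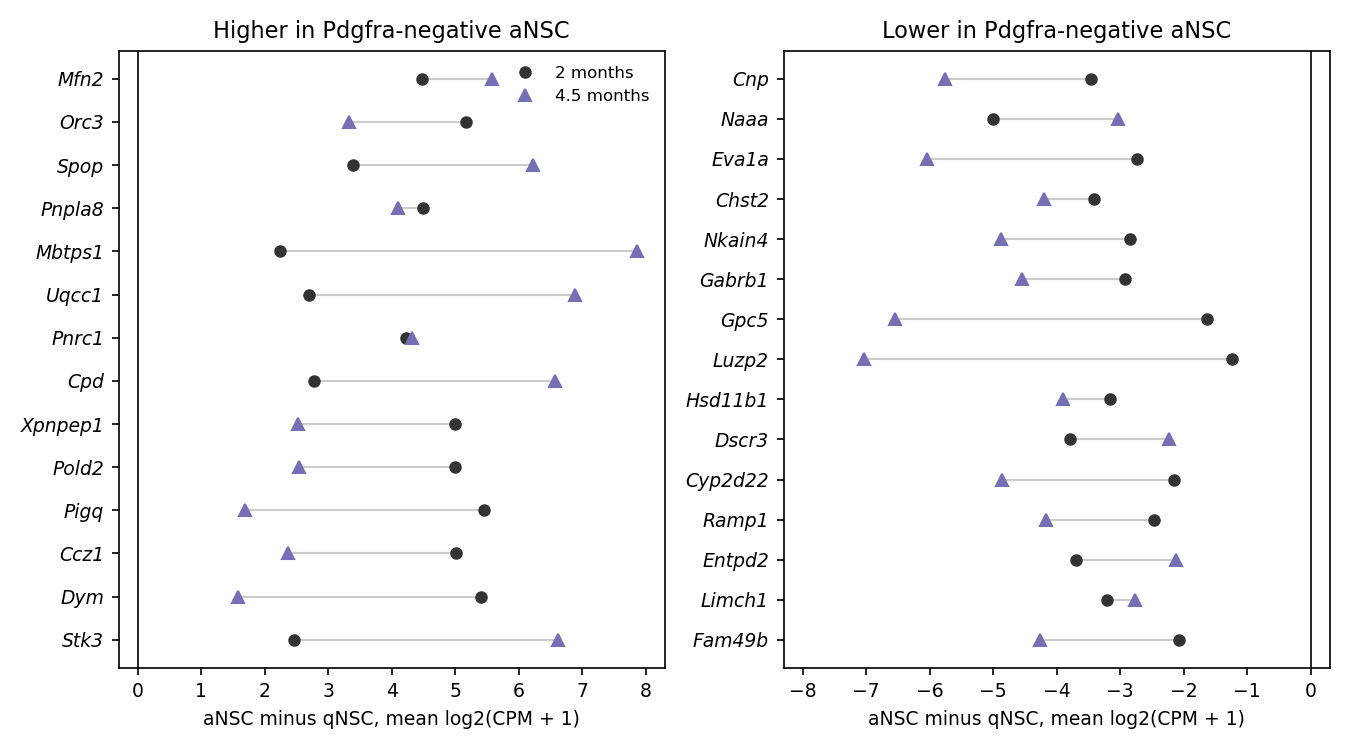
Difference in mean log2(CPM + 1), Pdgfra-negative aNSC minus green qNSC, at 2 months (circles) and 4.5 months (triangles), for genes with the largest differences that were called and differed by at least 1 at each age, 14 higher (left) and 15 lower (right). The order of the ages differs from gene to gene: Mbtps1 is at 2.25 and 7.87, Dym at 5.40 and 1.57, and Luzp2 at -1.23 and -7.03.

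All 30 genes chosen by this rule, 15 in each direction, kept their sign, with a difference of at least 1, under each of 24 other settings, 720 values in all, which included each aNSC cell left out in turn, cells thinned to 1 depth, and either age alone. As they had been chosen for their size in these cells and at each age, much of this is fixed by the choice and it is no independent support. Ages compared within them rest on 7 and 4 aNSC cells and on 15 and 10 green qNSC cells, from animals that the labels do not name.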

How the data were processed

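RNA of 89 single cells was read as one full-length library per cell with a kit that does not record strand. Per the submitters' processing notes, STAR and RSEM were used with mm10. The authors deposited RSEM estimated counts and TPM per gene and cell, and a table of classes and plotting colours. The estimated counts, of which 4.44% were not whole, were rounded for counting reads and scaled to a common total per cell (CPM); means are of log2(CPM + 1), a pseudocount of 1. The deposited TPM values served as an alternative.

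Cells were grouped by class, colour and Pdgfra reads. Each cell is its own sample record and no animal is named, so cells were described and not tested. A gene was measured when 20% or more of either group's cells had a read. It was called when the mean difference was at least 1, the ratio of summed CPM at least 2, and the share of cells with a read differed by 15 percentage points. The genes named were the 15 largest called differences each way with at least 1 at each age (leaving out predicted, Xist and Y-linked genes), the marker genes, and up to 3 members per list. Others (Apoe for its lack of overlap, genes counted in a list, and those read only in 1 cell) were named after their values were seen. The members and the 27 lists were chosen with earlier results of these data known. Reads have no molecular identifiers, so floors in reads cover counting error only; the 95% Clopper-Pearson limits are over numbers of cells, take cells as independent draws and leave out differences between animals. Some genes that met the rules are not reported here. The calculation was tested on simulated data. Tools were Python 3.11.15, numpy 2.4.6, pandas 2.3.3, scipy 1.17.1 and matplotlib 3.10.9.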

Additional observations from a re-analysis of the deposited data

Results flagged for a closer look

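A total or list level was checked 21 times for a cell far from the rest, over 3 sets of 4 to 10 cells (aNSC cells of each age and green qNSC cells of 4.5 months), and 4 checks found one, where the critical value used is set for about 1 in 20 by chance. All 4 were among the 7 Pdgfra-negative aNSC cells of 2 months. The total of 1896075 reads, in the cell with endothelial and mural markers, stood far above the next, 824430. The cell with many replication genes had a mean log2(CPM + 1) over the G1/S list of 6.79 (next 2.46) and over the G2/M list of 3.21 (next 0.65). Yet another cell had a stem cell identity level of 7.87 (next 6.20).

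For 7 lists the median difference, Pdgfra-negative aNSC minus green qNSC, had opposite signs at the 2 ages, and the difference between the ages was not tested. As 4.5 minus 2 months it was -2.03 for G2/M, -1.13 for G1 cyclins and kinases, -0.81 for oxidative phosphorylation, -1.07 for glycolysis, -1.17 for sterol and fatty acid synthesis, -0.58 for growth factor receptors and -0.38 for the cytoskeleton. Of 69 called genes checked, 1 had opposite signs: Cks1b, a partner of cyclin-dependent kinases, at -3.97. The check covered the largest differences, the given markers and up to 3 members per list. The 30 largest had been chosen to agree at both ages, so they could not fail it. Scd1 and Anp32b, called but outside the check, also had opposite signs. Their differences were 2.76 and 3.20 at 2 months and -0.78 and -0.02 at 4.5 months.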

How the results depend on the processing

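The 1264 genes called higher became 630 with a pseudocount of 10, 524 when reads were asked for in 50% of cells, 2724 in 4.5-month cells alone, and 1322 to 1473 with 1 aNSC cell left out. The 334 called lower became 128 and 112 under the first 2 of these, 575 with cells thinned to 1 depth, 721 and 1327 in 2-month and 4.5-month cells alone, 510 without cells with markers of other types, and 360 to 427 with 1 cell left out. The median over all genes (0.52) was 0.47 with TPM, 0.25 with a pseudocount of 10, 0.74 at 50% of cells, 0.23 unfiltered, 0.60 thinned, 0.59 at 4.5 months, 0.70 against all qNSC cells, 0.67 with all 18 aNSC cells, 0.16 as a ratio of summed CPM, and 0.51 to 0.59 with 1 cell left out. The 11 G1/S genes called became 7 with a pseudocount of 10, 4 at 50% of cells, 19 with 18 aNSC cells, and 5 to 16 with 1 cell left out; 14 to 21 ribosomal genes were called then. The 3 astroglial genes called lower became 0 with TPM, 5 thinned, 0 and 11 in 2-month and 4.5-month cells, 1 without cells with markers of other types, 8 against all qNSC cells, 9 with 18 aNSC cells, and 0 to 6 with 1 cell left out. The G1/S median (0.68) was 2.51 at 50% of cells, 0.23 at 4.5 months and 0.13 to 0.92 with 1 cell left out. The ribosomal median (1.43) was 0.84 with a pseudocount of 10, 1.75 at 4.5 months, 1.75 against all qNSC cells, 0.76 as a ratio of sums, and 1.22 to 1.54. The stem cell median (-0.55) was -1.20 with 18 aNSC cells, and -0.75 to -0.22. The astroglial median (-1.33) was -0.70 and -2.58 at 2 and 4.5 months, -2.08 against all qNSC cells, -1.86 with 18 aNSC cells, -0.90 as a ratio of sums, and -1.66 to -0.85. Chosen after seeing the data were 2 settings. Without both the cell with most replication genes and the cells with markers of other types, 588 genes were called lower, 0 of them astroglial, and the G1/S and astroglial medians were -0.13 and -0.58. With no demand on the share of cells, 545 genes and 11 astroglial genes were lower. Cks1b, 1.08 in all cells, was -1.40 at 4.5 months. Beyond these, 603 of 648 list medians and 2610 of 2616 gene differences moved by less than the spread, which is wide in single cells. The causes were not tested. No paired analysis was possible because cells carry no animal or shared number. Depth and the 4 aNSC cells of 4.5 months limit every value by age, and a gene with 0 reads may be missed rather than silent.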

Other observations

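Several lists not described above also lay above 0. Of 35 measured chromatin genes, 28 did, with a median difference of 0.83, and 5 were called higher, 14.3% against 15.2% of all genes: Hdac1, a histone deacetylase, at 2.99, Eed, of the Polycomb complex, at 2.76, Anp32e, Anp32b and Supt16. Of 23 nuclear transport genes, 5 were called higher (21.7%, against 15.2% of all genes), Ipo5 first at 2.85, and Nutf2 lower (4.35%, against 4.03%). Rcc1 and Nup93, 2 of the 5, counted as measured only through the aNSC cells, and Nutf2 only through the green qNSC cells. Of 37 proteasome genes, 27 lay above 0, with a median of 0.61, and 2 were called higher (5.41%, against 15.2% of all genes), Psmc6 and Psmd6.

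Immediate early genes had the second highest median after ribosomal proteins, 1.32, with 10 of 12 measured above 0. Only Btg2 was called (8.33%, against 15.2% of all genes called higher). Dusp1, Egr1 and Fos differed by 2.50, 2.35 and 1.85. The median was 1.40 at 2 months and 0.27 at 4.5 months. Lysosomal genes were even, 23 of 45 above 0. Mcoln1 and Gla were among the 3 called higher (6.67%, against 15.2% of all genes), and Hexa was called lower (2.22%, against 4.03%). Of 27 fatty acid oxidation genes none was called by the rule used here, and 18 lay above 0.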
